A study of Mus musculus with 4 samples.

Results

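The hedgehog set described here holds 9 genes: the ligands Dhh, Shh and Ihh, the receptor Ptch1, the ligand-binding inhibitor Hhip, the transducer Smo and the transcription factors Gli1, Gli2 and Gli3. They were found by the gene symbol of each array probe, and 16 of the 41174 probes on the array belonged to them. In all, 6 of the 9 genes were bright enough to be tested, among 17537 tested features, where a feature is 1 gene or 1 probe sequence without a current gene symbol. RNA came from male mouse germline stem cells, which are spermatogonial stem cells taken from the testis and kept in culture, and was measured on 4 Agilent arrays of 1 colour each. Cells of 2 arrays had received 4-hydroxytamoxifen (named Tamoxifen or 4-Tamoxifen in some labels) for 48 hours, and those of the other 2 arrays the solvent DMSO. All carried Roa-CreERT2 (also written Rose-CRE-ERT2 knockin), a recombinase that 4-hydroxytamoxifen switches on, and CAG-CAT-3FlagNanos2-pA, a construct that makes tagged Nanos2 from the CAG promoter after recombination. No group had the compound without the construct, so effects of the compound and of Nanos2 cannot be told apart. Both groups grew in GDNF and EGF at 20 ng/ml each and FGF2 at 10 ng/ml, on mitomycin-C-treated fibroblasts of C57Bl6 embryos taken at day 13.5, and these feeders were removed before RNA extraction. The labels do not say whether the replicates were separate cultures, so p-values measure the spread between these arrays, which may be technical.

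Hedgehog proteins are secreted signals. In the absence of a ligand the receptor Ptch1 holds Smo inactive, and the GLI factors, mostly Gli3, are processed into repressors. A bound ligand releases Smo, and Gli2 and Gli1 then activate transcription. Ptch1, Hhip and Gli1 are themselves widely used readouts of an active pathway, since the pathway raises their own transcripts. In the testis Dhh is the ligand of Sertoli cells and acts on Leydig and peritubular cells, and mice without it have defects of both.

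The sequences below show what the arrays read for the 5 genes that changed and for Smo. The lines give the last 30 bases of the probe of each gene, and for Smo the whole of a probe whose position on the genome spans more than its own length. Letters are those of the deposited files. Capitals mark AATAAA, the polyadenylation signal, which lies within the Dhh and Gli3 probe ends. Positions are on mouse build mm9, per the file headers.
Dhh probe end: tttgtggccaaAATAAAgattctagagtga
Ihh probe end: tggactgcttactccaatgtttctcggggc
Ptch1 probe end: catgtcaggtgtgagaggagggactcaaag
Gli2 probe end: ttaactgaatttgcttgttcagtatggcct
Gli3 bright probe end: tcctgcagatgtgtaaAATAAActgtgttc
Gli3 dim probe end: ctgaaaaaccctaaggtattctaggggaga
Smo spanning probe: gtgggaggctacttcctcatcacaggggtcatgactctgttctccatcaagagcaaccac

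The whole Dhh probe lies at chr15:98723465-98723524 on the minus strand, the Ihh probe at chr1:74992348-74992407 on the minus strand and the Ptch1 probe at chr13:63612907-63612966 on the minus strand. The Gli2 probe lies at chr1:120731255-120731314 on the minus strand. The bright Gli3 probe lies at chr13:15821502-15821561 on the plus strand, and the dim one starts 2773 bases before it. The Smo spanning probe covers chr6:29705582-29706815 on the plus strand, 1234 bases of the genome for 60 bases of probe, so that it crosses an intron.

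Across the hedgehog genes the ligand Dhh, the ligand Ihh and the activator Gli2 were higher in 4-hydroxytamoxifen cultures, and the receptor Ptch1 and the repressor-forming Gli3 were lower. Smo was bright in every array and did not pass the test, and Shh, Hhip and Gli1 were not well above background on any array. By limma, 3 of the 6 tested genes were called higher, where 40.5% of all features were, and 2 lower, where 29.0% were. Gli2 and Ptch1 passed the filter on dim probes only through the group in which they were brighter, so they had to differ, and these counts support nothing by themselves. Of the 3 genes that every array had well above background, 1 was higher (Dhh), 1 was lower (Gli3) and 1 did not pass (Smo). A call in either direction was made for 69.5% of features, so a call by itself was common here. The 2 arrays of each group did not overlap for any of the 6 tested genes, which held for 86.5% of all features.

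Levels below are the scanner's processed signals in arbitrary units. Each array's 75th percentile was subtracted on the log2 scale, and a difference is 4-hydroxytamoxifen minus DMSO on that scale, ± its standard error in limma over 2 arrays a group. A gene was called at a Benjamini-Hochberg adjusted p under 0.05 over all features. The median difference over all features was 0.12. When arrays were scaled on their medians in place of the 75th percentile, that median moved by -0.18, and the split of calls became 32.9% higher and 37.5% lower. None of the 5 called hedgehog genes changed direction under any scaling tried. Total RNA came from cells left after feeder removal, so fewer cells of a type and less RNA per cell cannot be told apart.

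The labels were checked on Nanos2, the RNA-binding protein of male germ cells that the construct encodes, read by a probe at chr7:19573771-19573830. Its signal was 904 and 1070 in 4-hydroxytamoxifen cultures, against 353 and 352 in DMSO cultures. The difference was 1.56 ± 0.10 (limma adjusted p = 0.000843), a 2.94-fold higher level. All 4 arrays lay on 1 slide and came from 1 scan, had between 62.1% and 65.9% of spots well above background and had no saturated spot.

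Dhh, the ligand that Sertoli cells secrete in the testis, had signals of 346 and 302 in 4-hydroxytamoxifen cultures, against 138 and 132 in DMSO cultures. Every 4-hydroxytamoxifen array was far above both DMSO arrays, and the probe was well above background on all 4. Mean signals were 324 ± 31.1 in 4-hydroxytamoxifen cultures and 135 ± 3.86 in DMSO cultures (SD, n = 2 each). The difference was 1.33 ± 0.10 (limma adjusted p = 0.000979), or 2.52-fold. It remained called under every alternative tried, with values between 1.07 and 1.43.

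Ihh, the ligand best known from growing cartilage, had signals of 30.8 and 37.4 in 4-hydroxytamoxifen cultures, against 14.6 and 20.7 in DMSO cultures. These values sit near the detection limit: both 4-hydroxytamoxifen arrays and 1 DMSO array were well above background. The fitted difference was 1.04 ± 0.21 (limma adjusted p = 0.0124), and since DMSO replicate 1 was not well above background its size is uncertain. It missed the threshold without 4-hydroxytamoxifen replicate 2 (0.91, limma adjusted p = 0.0666). A normexp background correction, which adds an offset that compresses dim probes, gave 0.29 and kept the call. The other Ihh probe, 2073 bases away, gave 5.83 and 5.75 in 4-hydroxytamoxifen cultures and 6.96 and 12.2 in DMSO cultures, not well above background on any array.

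Shh, the ligand of neural tube and limb patterning, had signals of 3.43 and 4.84 in 4-hydroxytamoxifen cultures and 3.74 and 4.27 in DMSO cultures. Its probe was spotted 10 times per array, and none of the arrays had it well above background. Of the ligand genes, Dhh alone was well above background on all arrays.

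**Figure D1:**
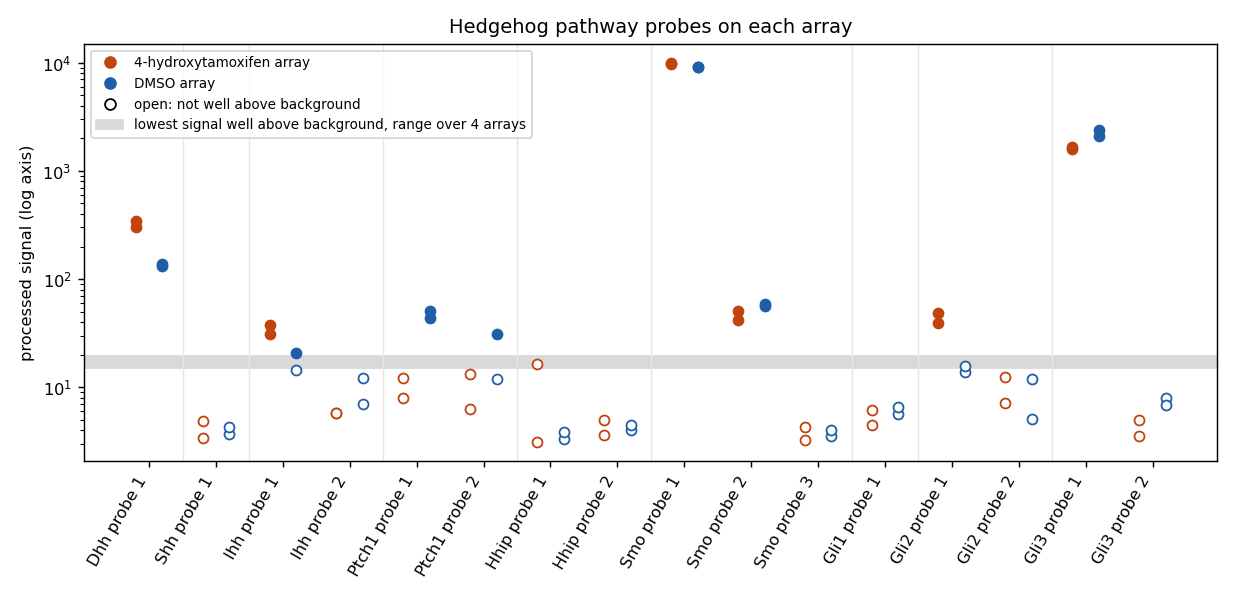
Processed signal (arbitrary units, log axis) of all 16 probes of the 9 hedgehog genes, 1 point per array, with 4-hydroxytamoxifen arrays left of DMSO arrays, open points where not well above background, and a grey band for the lowest signals called well above background (15.0 to 19.5). The Dhh probe averages 324 against 135 and the brightest Ptch1 probe 10.0 against 47.1, the brightest Smo and Gli3 probes are far above the band, and all Shh, Hhip and Gli1 points are open.

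Ptch1, the hedgehog receptor and a target of the pathway, fell in 4-hydroxytamoxifen cultures. Its signals were 12.2 and 7.91 in 4-hydroxytamoxifen cultures, against 50.4 and 43.8 in DMSO cultures. Both DMSO arrays were well above background and neither 4-hydroxytamoxifen array was, so the level in 4-hydroxytamoxifen cultures has only an upper bound. Taking for each such array the higher of the probe's signal and the lowest signal called well above background on it, Ptch1 was at least 2.60-fold lower. That lowest signal is taken over all probes of the array, and some brighter probes were not well above background. Scube2, for example, had 20.4 on DMSO replicate 2, where the lowest was 18.4. This bound and those given below are therefore approximate. The measured means were 10.0 ± 3.01 in 4-hydroxytamoxifen cultures and 47.1 ± 4.65 in DMSO cultures (SD, n = 2 each), and the fitted difference was -2.18 ± 0.24 (limma adjusted p = 0.00230). Ptch1 passed the filter only through DMSO cultures, so this p-value is no support by itself. With normexp the difference was -0.52 and remained called. A second Ptch1 probe, 2609 bases away, was well above background on DMSO replicate 1 only, with signals of 13.4 and 6.35 in 4-hydroxytamoxifen cultures and 31.1 and 11.9 in DMSO cultures, and was not tested.

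Hhip, a membrane protein that binds hedgehog ligands and limits their range, was read by 2 probes. One gave 3.11 and 16.3 in 4-hydroxytamoxifen cultures and 3.36 and 3.83 in DMSO cultures. The other gave 3.62 and 4.98 in 4-hydroxytamoxifen cultures and 4.00 and 4.46 in DMSO cultures. All of these were not well above background, including the 16.3 of 4-hydroxytamoxifen replicate 2, which the other probe did not share.

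Smo, the transducer that Ptch1 restrains, had signals of 9941 and 9750 in 4-hydroxytamoxifen cultures, against 9167 and 9062 in DMSO cultures. The groups did not overlap, but the difference of 0.19 ± 0.06 did not pass (limma adjusted p = 0.0522). It passed with normexp (adjusted p = 0.0355) and when every array had to be well above background (adjusted p = 0.0441). The intron-crossing Smo probe gave 42.0 and 50.7 in 4-hydroxytamoxifen cultures and 58.8 and 55.8 in DMSO cultures. Its difference of -0.24 ± 0.12 did not pass either (limma adjusted p = 0.142 in a fit over all probes, 67.3% of which were called) and had the opposite sign, and averaging both probes gave -0.025. The third Smo probe was at background on all arrays.

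Gli2, the main activator at the start of a hedgehog response, rose. Its signals were 39.6 and 48.7 in 4-hydroxytamoxifen cultures, against 13.8 and 15.8 in DMSO cultures. Both 4-hydroxytamoxifen arrays were well above background and neither DMSO array was, so by the same kind of bound Gli2 was at least 2.70-fold higher. The measured means were 44.2 ± 6.46 in 4-hydroxytamoxifen cultures and 14.8 ± 1.43 in DMSO cultures (SD, n = 2 each), and the fitted difference was 1.65 ± 0.13 (limma adjusted p = 0.00122). Gli2 passed the filter only through 4-hydroxytamoxifen cultures, so this p-value is no support by itself. With normexp the difference was 0.53 and remained called. The second Gli2 probe, 1584 bases away, gave 7.13 and 12.4 in 4-hydroxytamoxifen cultures and 5.10 and 11.8 in DMSO cultures, all at background.

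Gli3, the factor that forms the main repressor when no ligand is bound, was the brightest GLI probe. Its signals were 1652 and 1609 in 4-hydroxytamoxifen cultures, against 2108 and 2381 in DMSO cultures. The groups did not overlap, and the difference of -0.38 ± 0.08 (limma adjusted p = 0.0164) was a 1.30-fold lower level. This was the least firm of the 5 calls, as it was lost without 4-hydroxytamoxifen replicate 1 (adjusted p = 0.0650), 4-hydroxytamoxifen replicate 2 (0.0805) or DMSO replicate 2 (0.0544), and with no filter on dim probes (0.0597). The dim Gli3 probe gave 3.58 and 4.96 in 4-hydroxytamoxifen cultures and 7.90 and 6.83 in DMSO cultures, all at background. Gli1, the activator that is itself a target of the pathway, gave 4.48 and 6.20 in 4-hydroxytamoxifen cultures and 5.67 and 6.64 in DMSO cultures, not well above background on any array.

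**Figure D2:**
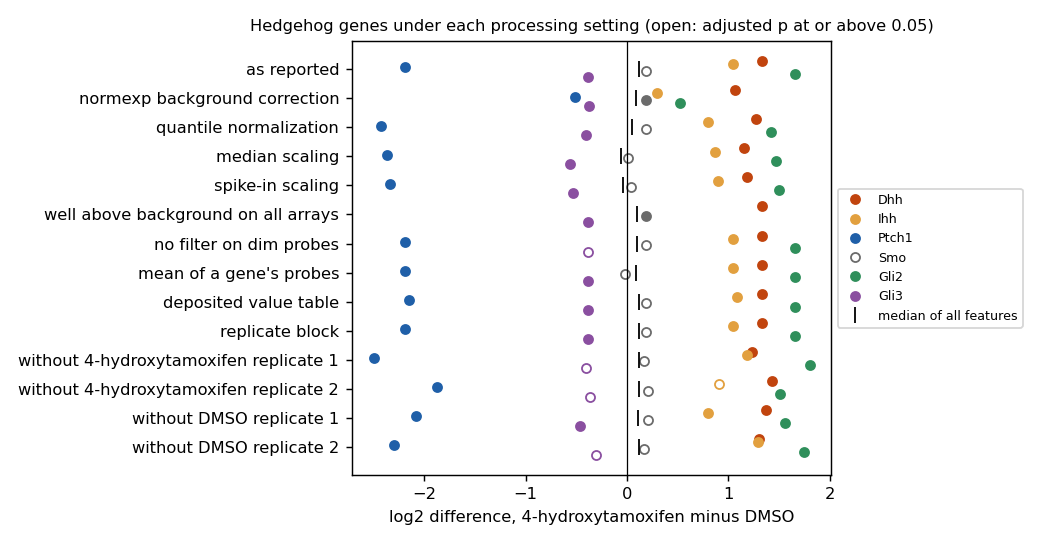
Log2 difference, 4-hydroxytamoxifen minus DMSO, of the 6 tested hedgehog genes under each processing setting, with filled points for an adjusted p under 0.05, open points otherwise and a tick for the median of all features. Dhh, Ihh and Gli2 lie above 0 and Ptch1 and Gli3 below 0 wherever they were tested, the dim genes move towards 0 with normexp, and Smo is at -0.025 when its probes are averaged.

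The region before the start of transcription was available from RefSeq (build GRCm38.p6) for 7 of the 9 genes, and not for Shh and Gli1. The promoters of Dhh (chr15:98898541-98898790, minus strand) and Ptch1 (chr13:63565736-63565985, minus strand) are shown, as the ligand and the receptor that moved in opposite directions. Each line runs 250 bases up to the base before the start, and capitals mark the GC box GGGCGG on either strand.
Dhh promoter: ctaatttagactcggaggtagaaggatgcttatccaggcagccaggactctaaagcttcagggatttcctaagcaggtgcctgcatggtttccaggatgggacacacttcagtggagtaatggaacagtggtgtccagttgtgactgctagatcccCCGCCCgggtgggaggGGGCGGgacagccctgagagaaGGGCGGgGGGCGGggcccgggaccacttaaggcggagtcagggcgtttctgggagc
Ptch1 promoter: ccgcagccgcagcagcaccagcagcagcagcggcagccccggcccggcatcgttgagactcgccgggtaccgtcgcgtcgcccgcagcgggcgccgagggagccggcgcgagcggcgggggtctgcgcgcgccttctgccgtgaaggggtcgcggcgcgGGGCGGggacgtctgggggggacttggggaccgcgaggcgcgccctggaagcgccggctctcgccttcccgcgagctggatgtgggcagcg

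Dhh had 4 GC boxes, which begin 94, 78, 56 and 49 bases before the start, and Ptch1 had 1, at 91 bases. Ihh, Hhip and Gli3 had 2 each, Gli2 had 1 and Smo had 0. Of all 32851 promoter windows of this length, 32.7% held the GC box. The GLI site GACCACCCA, held by 0.225% of windows, its core GACCACC, held by 2.34% and contained in the longer site, and TATAAA, held by 12.4%, were each searched on both strands and were not among the letters of any of the 7 windows.

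Of 8 tested genes that make and release the ligands, 6 were higher, 1 was lower and 1 did not pass, with a median difference of 0.71 against 0.12 over all features, 40.5% of which were higher. Disp2 and Scube2 passed the filter only through 4-hydroxytamoxifen cultures, where they were brighter. Of the 6 genes well above background on all arrays, 4 were higher and 1 was lower, with a median of 0.59. Hhatl, a relative of the enzyme that attaches palmitate to hedgehog proteins, had signals of 171 and 191 in 4-hydroxytamoxifen cultures, against 33.3 and 32.3 in DMSO cultures (2.54 ± 0.08, limma adjusted p = 0.000386). Scube1, of the secreted family that helps release the lipid-bearing ligand, rose by 1.51 ± 0.08, while its other tested probe gave -0.35 and did not pass. Disp2, a homologue of the ligand exporter, was not well above background in DMSO cultures and was at least 1.81-fold higher. Disp1, the exporter itself, fell by 0.80 ± 0.06 on the log2 scale, yet its second probe rose by 0.65 (adjusted p = 0.00589).

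Co-receptors went both ways. Of 6 tested, 2 were higher, 1 was lower and 3 did not pass, with a median of -0.14. Over all features, 40.5% were higher and 29.0% were lower, with a median of 0.12. Gas1, a surface protein that helps Ptch1 bind the ligand, had signals of 1512 and 1221 in 4-hydroxytamoxifen cultures, against 557 and 657 in DMSO cultures (1.24 ± 0.15, limma adjusted p = 0.00284). Boc, another co-receptor, had 219 and 228 in 4-hydroxytamoxifen cultures, against 447 and 388 in DMSO cultures (-0.82 ± 0.10, adjusted p = 0.00287). Gpc3, a glypican that competes with Ptch1 for the ligand, rose by 0.87 ± 0.14. Cdon, related to Boc, had a difference of -0.05 ± 0.07 and did not pass.

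Among 12 tested transducers, which include cilium genes because Smo signals from the primary cilium, 5 were higher, 2 were lower and 5 did not pass (median 0.28). Over all features, 40.5% were higher and 29.0% were lower, with a median of 0.12. Evc2, a ciliary partner of Smo, rose by 1.15 ± 0.07, but its other probe fell by 0.99 (adjusted p = 0.0285). Stk36, the mammalian counterpart of the fly kinase Fused, rose by 0.90 ± 0.09, and Dync2h1, the motor of retrograde transport in cilia, by 0.87 ± 0.06. Efcab7, which anchors the Evc2 complex, fell by 0.99 ± 0.08. Grk2, the kinase that phosphorylates active Smo, fell by 0.38 ± 0.08, and its 2 other probes gave -0.45 (called) and -0.02 (not called).

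Of 21 tested inhibitors and GLI-processing genes, 7 were higher, 8 were lower and 6 did not pass (median 0.03). The shares over all features were 40.5% higher and 29.0% lower. The list median was -0.15 with median scaling, -0.12 with spike-in scaling and -0.06 when all probes of a gene were averaged, and with spike-in scaling 0 of the 21 were higher. Spike-in scaling moved the median of all features by -0.15. It also gave each of the 6 tested hedgehog genes a standard error of 0.22, against 0.10 for Dhh and 0.06 for Smo in the fit reported here. Kif7, the ciliary kinesin that organises GLI processing, had signals of 106 and 109 in 4-hydroxytamoxifen cultures, against 413 and 406 in DMSO cultures (-1.85 ± 0.06, limma adjusted p = 0.000401). Zic1, a zinc finger protein related to the GLI factors, fell by 1.14 ± 0.07, and Ulk3, a kinase of GLI proteins, by 0.83 ± 0.08. Sufu, the protein that holds GLI factors in the cytoplasm, gave 0.44 ± 0.06 with its brightest probe but -1.19 and -1.75 with the other 2, all called, so that its direction is not settled here. Prkacb, a catalytic subunit of the kinase that starts GLI processing, rose by 0.61 ± 0.08, and Itch, a ubiquitin ligase of Gli1, by 0.46 ± 0.09. Neither of these passed with spike-in scaling.

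Of 21 tested genes used in other tissues as hedgehog targets, 10 were higher, 6 were lower and 5 did not pass, with a median of 0.24. These shares are near those of all features, 40.5% higher and 29.0% lower, and with spike-in scaling 6 were higher and 6 lower. Mycn, a growth-promoting MYC factor, had 659 and 694 in 4-hydroxytamoxifen cultures, against 3212 and 3362 in DMSO cultures (-2.21 ± 0.07, limma adjusted p = 0.000377). Igfbp6, an IGF-binding protein, fell by 2.26 ± 0.11, and Foxf1, a forkhead factor of mesoderm, by 1.37 ± 0.10. Foxd1, a forkhead factor of stromal cells, rose by 1.74 ± 0.15, Prdm1, a transcriptional repressor of germ cell precursors and lymphocytes, by 1.58 ± 0.07, and Bcl2, an inhibitor of apoptosis, by 1.52 ± 0.14.

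**Figure D3:**
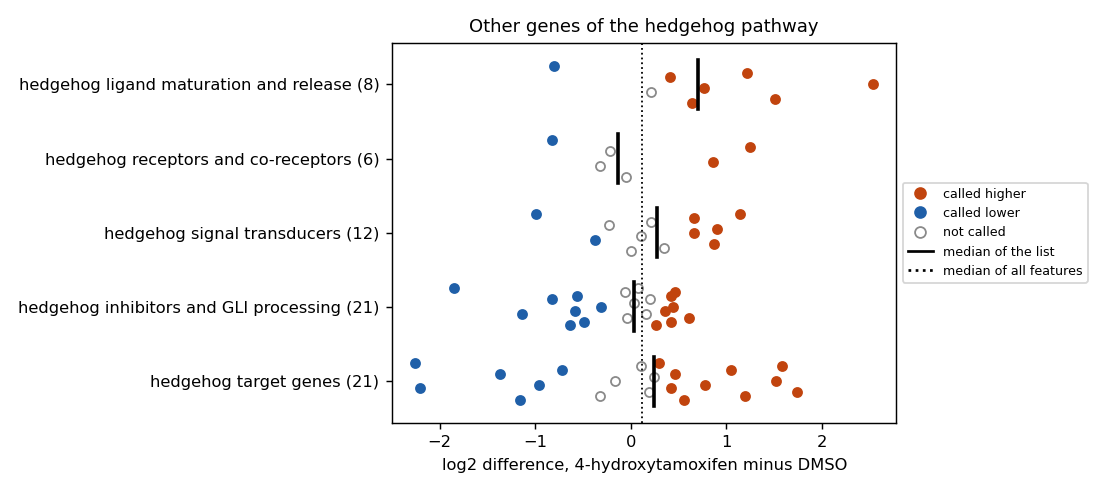
Log2 difference, 4-hydroxytamoxifen minus DMSO, of each tested gene in the hedgehog pathway lists, 1 point per gene, coloured where called at an adjusted p under 0.05 and open where not, with a bar for the median of each list and a dotted line for that of all features. In the maturation and release list 6 of 8 genes are called higher, with 2 of them dim in DMSO cultures, while the inhibitor list (7 higher, 8 lower) and the target list (10 higher, 6 lower) spread to both sides.

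Cell type markers differed between the same arrays, where 40.5% of all features were higher and 29.0% were lower. Of 13 tested Sertoli markers, 7 were higher and 4 were lower, and the summed level of the list, in units of each array's 75th percentile, was 25.8 and 25.6 in 4-hydroxytamoxifen cultures, against 11.8 and 12.2 in DMSO cultures. Most of that 4-hydroxytamoxifen sum came from Krt18 and Inhbb. Krt18 had signals of 8225 and 8501 in 4-hydroxytamoxifen cultures, against 1081 and 1076 in DMSO cultures. Without Inhbb, the list summed to 17.8 and 18.3 in 4-hydroxytamoxifen cultures, against 8.39 and 8.22 in DMSO cultures. The sum without Krt18 was not computed. The defining Sertoli genes Amh and Fshr were not well above background on any array. Cldn11, of Sertoli tight junctions, rose by 3.59 ± 0.11, Sox9, the Sertoli fate factor, by 0.82 ± 0.11, and the keratin Krt18 by 3.03 ± 0.06, while Wt1 fell by 0.88 ± 0.10 and Trf by 2.01 ± 0.08. Dmrt1, which germ cells also express, fell by 3.11 ± 0.10. The part of Sertoli cells in the Dhh result was not tested.

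Of 31 tested embryonic fibroblast markers, 30 were higher and 0 were lower, with a median of 0.94 and a summed level of 872 and 826 in 4-hydroxytamoxifen cultures, against 437 and 502 in DMSO cultures. The shares over all features were 40.5% higher and 29.0% lower. Thbs1 rose by 1.49 ± 0.11 and Pdgfrb by 1.40 ± 0.07, both genes of mesenchymal cells, which can respond to hedgehog ligands. The Leydig and peritubular list, whose cells carry the Dhh receptor in the testis, had 5 higher and 2 lower of 9 and summed to 36.8 and 35.4 in 4-hydroxytamoxifen cultures, against 16.4 and 18.4 in DMSO cultures. The 5 higher genes were Acta2, Myh11, Des and Cnn1, of contractile cells, and Nr2f2, of stromal cells, and Acta2 alone gave 28.7 and 28.1 of the sum in 4-hydroxytamoxifen cultures and 13.0 and 14.5 in DMSO cultures. The steroid-cell genes Nr5a1 (-0.28 ± 0.06) and Cyp17a1 (-0.43 ± 0.11) were lower, Star (-0.12) did not pass, and Cyp11a1 and Lhcgr were not well above background on any array. The macrophage list had 5 higher and 0 lower of 7 and summed to 37.1 and 37.9 in 4-hydroxytamoxifen cultures, against 16.9 and 18.8 in DMSO cultures. Without Lyz2 it summed to 2.92 and 2.87 in 4-hydroxytamoxifen cultures, against 1.51 and 1.32 in DMSO cultures. Adgre1 rose by 1.40 ± 0.14, Aif1 by 1.40 ± 0.10, Cd14 by 0.95 ± 0.08 and Csf1r by 0.25 ± 0.07. Ptprc (0.02) and Cd68 (0.12) did not pass, and Itgam was at background.

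Schwann cells and endothelium are other known sources of Dhh. The counts below stand beside 40.5% higher and 29.0% lower over all features. The Schwann and glial list had 2 higher and 3 lower of 7, and summed to 15.0 and 15.3 in 4-hydroxytamoxifen cultures, against 13.8 and 15.0 in DMSO cultures, with Foxd3 at background on all arrays. Without its brightest gene, Pmp22, it summed to 5.62 and 5.69 in 4-hydroxytamoxifen cultures, against 8.46 and 9.81 in DMSO cultures. S100b rose by 1.29 ± 0.08 and Egr2 fell by 0.98 ± 0.11. The endothelial list had 4 higher and 0 lower of 7 and summed to 11.4 and 10.8 in 4-hydroxytamoxifen cultures, against 9.57 and 10.1 in DMSO cultures, with Cdh5 and Tie1 at background. Without its brightest gene, Egfl7, it summed to 5.92 and 5.36 in 4-hydroxytamoxifen cultures, against 3.42 and 3.88 in DMSO cultures. Emcn rose by 1.65 ± 0.10 and Tek by 1.17 ± 0.10, while the other Tek probe gave 0.72 and did not pass. Cldn5 (0.75) and Flt1 (0.59) were also higher, and Pecam1 (-0.47), Kdr (0.22) and Egfl7 (-0.16) did not pass. With median scaling, 3 endothelial genes were higher and 2 lower. Quantile and spike-in scaling each gave 3 higher and 1 lower. Germline stem cell markers ran the other way: 14 of 18 were lower and 2 higher, with a median of -1.43 and a summed level of 84.3 and 87.3 in 4-hydroxytamoxifen cultures, against 102.7 and 103.3 in DMSO cultures. Thy1, which the fibroblast list also holds, rose by 1.22 ± 0.09, and without it the germline sum was 51.0 and 53.0 in 4-hydroxytamoxifen cultures, against 89.1 and 87.8 in DMSO cultures. Nanos3 fell by 4.76 ± 0.13 and Lhx1 by 2.53 ± 0.13. The Nanos3 signals were 26.1 and 32.7 in 4-hydroxytamoxifen cultures, against 851 and 819 in DMSO cultures. The germ cell helicase Ddx4 stayed bright, at 18716 and 20047 in 4-hydroxytamoxifen cultures and 23793 and 22119 in DMSO cultures. How much these cell types contribute to the hedgehog differences was not tested.

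**Figure D4:**
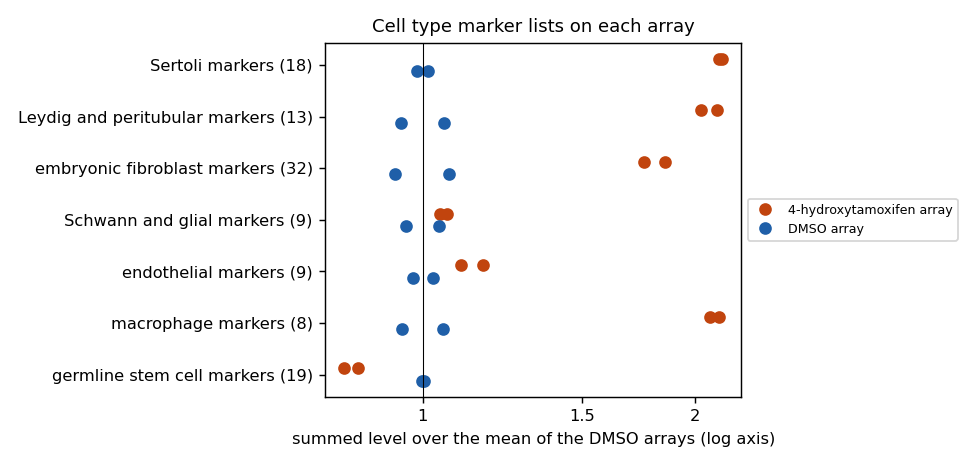
Summed level of each cell type marker list on each array, in units of that array's 75th percentile, over the DMSO mean of the list, with 4-hydroxytamoxifen arrays above DMSO arrays. Sertoli, Leydig and peritubular, macrophage and fibroblast lists lie above the DMSO arrays, and the germline stem cell list lies below them. In 4-hydroxytamoxifen cultures Krt18 and Inhbb hold most of the Sertoli sum. Acta2 holds most of the Leydig and peritubular sum, and Lyz2 most of the macrophage sum.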

How the data were processed

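Total RNA was measured on 4 arrays, with 0.20 µg labelled for each, per the labels' protocols. Intensity per spot, on a linear scale, is what the deposited scanner output gives. Background was subtracted by Agilent Feature Extraction 10.7.3.1, per the file headers, while the submitters' processing notes name version 9.5. The authors' deposited value table holds log2 values. They equal the scanner's processed signal on the log2 scale shifted by 1 constant for each array (0.275 to 0.362), with medians of 6.35 and 6.35 for 4-hydroxytamoxifen and 6.16 and 6.18 for DMSO, and served as an alternative.

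Spots flagged as outliers, 60 to 71 per array, and control spots were left out, spots of 1 probe were averaged, and the 75th percentile of each array, between 676 and 718, was subtracted on the log2 scale. A probe was kept if well above background on 2 or more arrays (26392 were), and the brightest stood for its gene. RefSeq accessions, gene symbols or synonyms named 33634 probes, and 7540 kept the name in the files. limma 3.58.1 in R 4.3.3 compared the groups, with Benjamini-Hochberg adjustment over all features, after the fit was tested on simulated data. Far fewer features changed in the simulation than were called here, and no scaling was applied. It therefore does not cover data with this many calls or the choice of scaling. The number of arrays limits the precision, and an exact permutation test of 2 against 2 arrays could not go below p = 0.333. Probe fits ran over all kept probes, of which 67.3% were called.

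Named were all 9 members with their probes, up to 3 called genes per direction from each pathway list, up to 2 from each marker list (other marker genes, Cdon, Scube2 and Hoxd12, and the list sums without a gene, were added after the values were seen), and the genes most like each called member measured on all 4 arrays. The members and lists were chosen with earlier results of these data known. Foxl1, Insl3, Dyrk2 and Zbtb16 were not analysed here. Replicate numbers were not taken as pairs: the correlation of same-numbered deviations was -0.045 over 2 pairs. Alternatives were normexp, quantile, median and spike-in scaling, other filters, the mean of a gene's probes, the deposited table, a replicate block and leaving out each array.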

Additional observations from a re-analysis of the deposited data

How the results depend on the processing

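Dhh, Ihh, Ptch1, Gli2 and Gli3 kept their direction under every alternative that tested them, and Dhh, Ptch1 and Gli2 also kept their calls. Requiring all 4 arrays well above background left Ihh, Ptch1 and Gli2 untested. Gli3 stayed at -0.38 but was not called with no filter on dim probes (adjusted p = 0.0597), and ranged from -0.46 to -0.30 when 1 array was left out. Ihh ranged from 0.80 to 1.29 in the same way. Smo was -0.025 with the mean of its probes (reversed sign), 0.19 and called with normexp, and 0.19 and called with the filter on all arrays. The number of hedgehog genes called lower was 1 with no filter and 1 with the filter on all arrays, and 1 to 2 when 1 array was left out, where those called higher numbered 2 to 3. With the replicate number as a block, the Dhh difference of 1.33 had an adjusted p of 0.0026, no hedgehog call changed, and 6572 features were higher and 4526 lower, against 7106 and 5079 without the block. Of 41 named list genes, 35 kept call and direction throughout, and Sufu reversed to -0.83 with the mean of its probes. Median scaling called 5775 features higher and 6584 lower. The causes of these changes were not tested. Signal over background limits Ihh, Ptch1 and Gli2 to signals near the detection limit, and for Shh, Hhip and Gli1 a difference was not detectable at this signal. Without the filter, their differences were 0.10, 1.07 and -0.14, with adjusted p of 0.80, 0.47 and 0.705.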

Other observations

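The posterior Hoxd genes, whose domains in the limb depend on Shh, were higher in 4-hydroxytamoxifen cultures in 4 of 4 tested cases, with a median difference of 1.40, or 1.17 with the 2 dim genes at their bound. Over all features, 40.5% were higher. Hoxd9 and Hoxd11 passed the filter only through 4-hydroxytamoxifen cultures, and with all arrays required 2 of 2 were higher. Hoxd10 had signals of 273 and 269 in 4-hydroxytamoxifen cultures, against 81.7 and 109 in DMSO cultures (1.60 ± 0.15, limma adjusted p = 0.00168). Hoxd13 had 1109 and 991 in 4-hydroxytamoxifen cultures, against 366 and 429 in DMSO cultures (1.48 ± 0.11, limma adjusted p = 0.00106). Hoxd9 was not well above background in DMSO cultures and was at least 1.68-fold higher, and Hoxd12 was not well above background on any array. Its signals ran the other way, at 7.67 and 7.79 in 4-hydroxytamoxifen cultures and 16.6 and 17.4 in DMSO cultures, and with no filter on dim probes it was the 1 gene of the list called lower. The list was chosen with earlier results known, and Shh itself was at background on all arrays.

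Over the 4 arrays, the genes whose centred values lay nearest to those of Dhh were Mgam, with a root mean square distance of 0.028 on the log2 scale, Dpp9 (0.033) and Ankrd44 (0.034). The nearest to Gli3 were Ppp1r15b (0.0090), Kcnt2 (0.013) and Blm (0.018). These are likenesses over 4 points among 17537 features.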
